A study of Mus musculus with 22 samples.

Results

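Complement and coagulation factors are the plasma protein cascades that the liver makes, together with the receptors and regulators that act with them. A list of 49 gene symbols was taken, covering the classical, lectin, alternative and terminal complement pathways, clotting factors, anticoagulants, and fibrinolysis with its protease inhibitors. Of these, 46 had a row on the array among 24011 genes with a symbol, and all 46 were tested. The other 3, C3, Cfd and Cpb2, were not analysed here. The rule that names the genes uses their function, and it was set with earlier results of these data known.

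Whole liver RNA of 22 female C57BL/6J mice, 12 weeks old, was measured on Affymetrix MoGene 2.0 ST arrays, with an array for each mouse. The 4 groups cross genotype with diet. WT_chow (n = 5) were wild-type mice on regular chow, and KO_chow (n = 5) were Cyp2c70 knockout mice on the same chow. WT_UDCA (n = 6) and KO_UDCA (n = 6) were wild-type and knockout mice given chow with 0.1% ursodeoxycholic acid (UDCA) for 7 weeks from the age of 5 weeks. Cyp2c70 encodes the mouse liver enzyme that makes muricholic acids, hydrophilic bile acids that human bile lacks, and UDCA is a hydrophilic bile acid used as a drug. The sources used here do not state how the knockout allele was made or in which tissues it acts.

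Clotting and complement both run as chains of proteases that cut and activate the next protein. Hepatocytes secrete most of the zymogens into blood, whereas C1q, properdin, thrombomodulin and the plasminogen activators come largely from macrophages, endothelium and other cells. Complement marks particles for uptake and ends in the membrane attack complex, clotting ends in fibrin, and fibrinolysis dissolves fibrin through plasmin. Several of these genes belong to the hepatic acute phase response, in which cytokines raise the transcription of some plasma proteins and lower that of others.

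Values are log2 intensities, with the SD over mice where a mean is given. The Cyp2c70 probe set read 11.49 ± 0.14 (SD, n = 5) in WT_chow, 10.65 ± 0.12 (n = 5) in KO_chow, 11.43 ± 0.14 (n = 6) in WT_UDCA and 10.51 ± 0.17 (n = 6) in KO_UDCA, with no overlap between genotypes on either diet. Array medians lay between 4.85 and 4.96. Albumin read 13.02 ± 0.03 in WT_chow and of the 9 measured hepatocyte markers Ass1 alone lay near the array median, at 4.62 ± 0.61. Among the KO_chow mice, numbers 2 and 5 stood apart: the summed intensity of 8 monocyte-derived macrophage markers was 3795 and 2741 in them, against 1152, 1509 and 1222 in mice 1, 3 and 4 and 593.6 to 672.3 in WT_chow. Such sums of unlogged intensities weigh the brightest genes most. In KO_chow Lgals3 reached 10.59 and Cd9 9.82, while Trem2, Ccr2 and Cx3cr1 reached at most 6.68. Counts of called members in the comparisons with KO_chow are given with and without mice 2 and 5. So are the counts by role on chow and those of the marker and gene lists.

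Promoter sequences of 7 members are printed here because they carry the letters of motifs known from liver and inflammatory gene control and belong to genes of contrasting behaviour: C8a, C9 and Plaur were higher in KO_chow, F11, Klkb1 and F13b were lower, and Fgb, a classical acute phase gene, did not pass the test. Each run is the 250 bases before the annotated start, 5′ to 3′ on the gene's own strand, from RefSeq on build GRCm38.p6, with capitals marking the motif matches. The intervals are chr4:104876399-104876648 (minus strand) for C8a, chr15:6445096-6445345 (plus) for C9, chr7:24462233-24462482 (plus) for Plaur, chr8:45262032-45262281 (minus) for F11, chr8:45294836-45295085 (minus) for Klkb1, chr1:139501457-139501706 (plus) for F13b and chr3:83049864-83050113 (minus) for Fgb.
C8a: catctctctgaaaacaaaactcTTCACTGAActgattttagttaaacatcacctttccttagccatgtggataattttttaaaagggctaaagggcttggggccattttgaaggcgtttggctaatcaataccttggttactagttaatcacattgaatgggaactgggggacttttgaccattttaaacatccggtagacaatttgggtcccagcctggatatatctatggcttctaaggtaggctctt
C9: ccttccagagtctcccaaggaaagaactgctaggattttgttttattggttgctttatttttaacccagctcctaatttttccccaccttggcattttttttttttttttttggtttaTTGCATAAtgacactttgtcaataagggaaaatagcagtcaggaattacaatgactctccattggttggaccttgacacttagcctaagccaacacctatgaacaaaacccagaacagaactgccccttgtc
Plaur: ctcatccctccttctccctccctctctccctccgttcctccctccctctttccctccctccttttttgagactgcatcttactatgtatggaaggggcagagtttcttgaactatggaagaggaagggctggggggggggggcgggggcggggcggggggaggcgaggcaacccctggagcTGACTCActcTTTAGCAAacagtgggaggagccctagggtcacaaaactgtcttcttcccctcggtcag
F11: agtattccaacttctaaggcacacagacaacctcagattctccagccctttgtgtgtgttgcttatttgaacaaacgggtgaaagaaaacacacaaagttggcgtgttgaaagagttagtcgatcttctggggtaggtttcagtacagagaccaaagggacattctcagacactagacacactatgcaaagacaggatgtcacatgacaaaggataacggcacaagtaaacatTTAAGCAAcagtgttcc
Klkb1: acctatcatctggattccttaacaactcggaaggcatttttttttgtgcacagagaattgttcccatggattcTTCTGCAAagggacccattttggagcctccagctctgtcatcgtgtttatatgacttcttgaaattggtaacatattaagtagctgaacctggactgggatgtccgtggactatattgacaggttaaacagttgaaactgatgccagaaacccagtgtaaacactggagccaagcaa
F13b: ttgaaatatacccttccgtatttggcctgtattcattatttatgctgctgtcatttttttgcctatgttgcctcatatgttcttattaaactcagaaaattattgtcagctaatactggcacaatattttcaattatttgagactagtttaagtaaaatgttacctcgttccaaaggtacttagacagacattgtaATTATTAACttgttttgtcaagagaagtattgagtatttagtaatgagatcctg
Fgb: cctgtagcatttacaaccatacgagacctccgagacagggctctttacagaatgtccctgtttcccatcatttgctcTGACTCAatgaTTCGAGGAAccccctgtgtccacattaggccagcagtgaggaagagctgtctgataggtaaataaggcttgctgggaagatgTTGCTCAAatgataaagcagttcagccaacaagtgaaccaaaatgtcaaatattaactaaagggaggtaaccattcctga
In C8a the capitals mark a STAT motif starting at base -228 from the start site, and in C9 a C/EBP motif at -132. The Plaur window holds an AP-1 motif at -69 and a C/EBP motif at -59 on the other strand. F11 and Klkb1 each hold a C/EBP motif on the other strand, at -17 and -177, and F13b an HNF1 motif on the other strand at -54. The Fgb window holds AP-1, STAT and C/EBP motifs at -173, -162 and -80.

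Promoter entries were found for 34 of the 46 measured members, and 5 motifs were searched on both strands of the 250 bases. The STAT motif, TTCNNNGAA, lay in 6 of the 34 member promoters and in 7.18% of all 27025 promoters. C/EBP, TTGCNNAA, lay in 8 of 34 and in 9.55% of all. AP-1, TGANTCA, lay in 4 and in 6.87% of all. HNF1, GTTAATNAT, lay in 4 members, C4bp, F13b, Fga and Hc, and in 0.78% of all. This HNF1 motif was shortened by 1 letter after its matches had been seen, and with the further T first searched it lay in 3 members, all of these but Fga, and in 0.41% of all. HNF4, CAAAGTNCA, lay in 1 member, F9, and in 1.21% of all. Motif letters overlapping each other were each counted. Of the 13 genes with a promoter entry that passed the chow test described next, 8 held at least 1 motif and 5 held none, and the matches fell in both higher and lower genes. Members that did not pass also held motifs: C4bp, F2, F3, F9, Fga, Fgb, Hc and Pros1. The share of all promoters with at least 1 of the 5 motifs was not computed, so these counts mark no trait of the called genes. A match describes these letters only.

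The first comparison asks how the knockout differed from wild type on chow. In KO_chow the plasminogen activators Plat and Plau, the urokinase receptor Plaur and the membrane attack genes C6, C8a and C9 were higher. The lectin pathway genes Masp2 and Mbl2, properdin (Cfp) and the clotting genes F7, F11, F13b and Klkb1 were lower. Plat was 3.71-fold higher and Plaur 2.75-fold higher, while the 4 clotting genes were lower by 1.33-fold at most. A gene is called here when its p, from limma's two-sided test with Benjamini-Hochberg adjustment over all 24011 genes, is below 0.05. Of the 46 members, 17 were called, 8 higher and 9 lower (37.0%). Of all genes 13.7% were called, 7.69% higher and 6.03% lower. Every share of all genes given here includes many dim genes. Among the members, only Thbd, Plat, Plau and Plaur lay below the array median on any array. With the filter on dim genes, which tests fewer genes, 3770 were called against 3295. The share called among brighter genes was therefore higher than 13.7%, and it was not computed. At an unadjusted p of 0.05 it was 23 members, where 25.5% of all genes passed. The median member change was -0.03 log2 units, beside -0.04 for all genes, with calls in both directions. In 14 members the KO_chow and WT_chow mice did not overlap, against 9.43% of all genes.

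**Figure D1:**
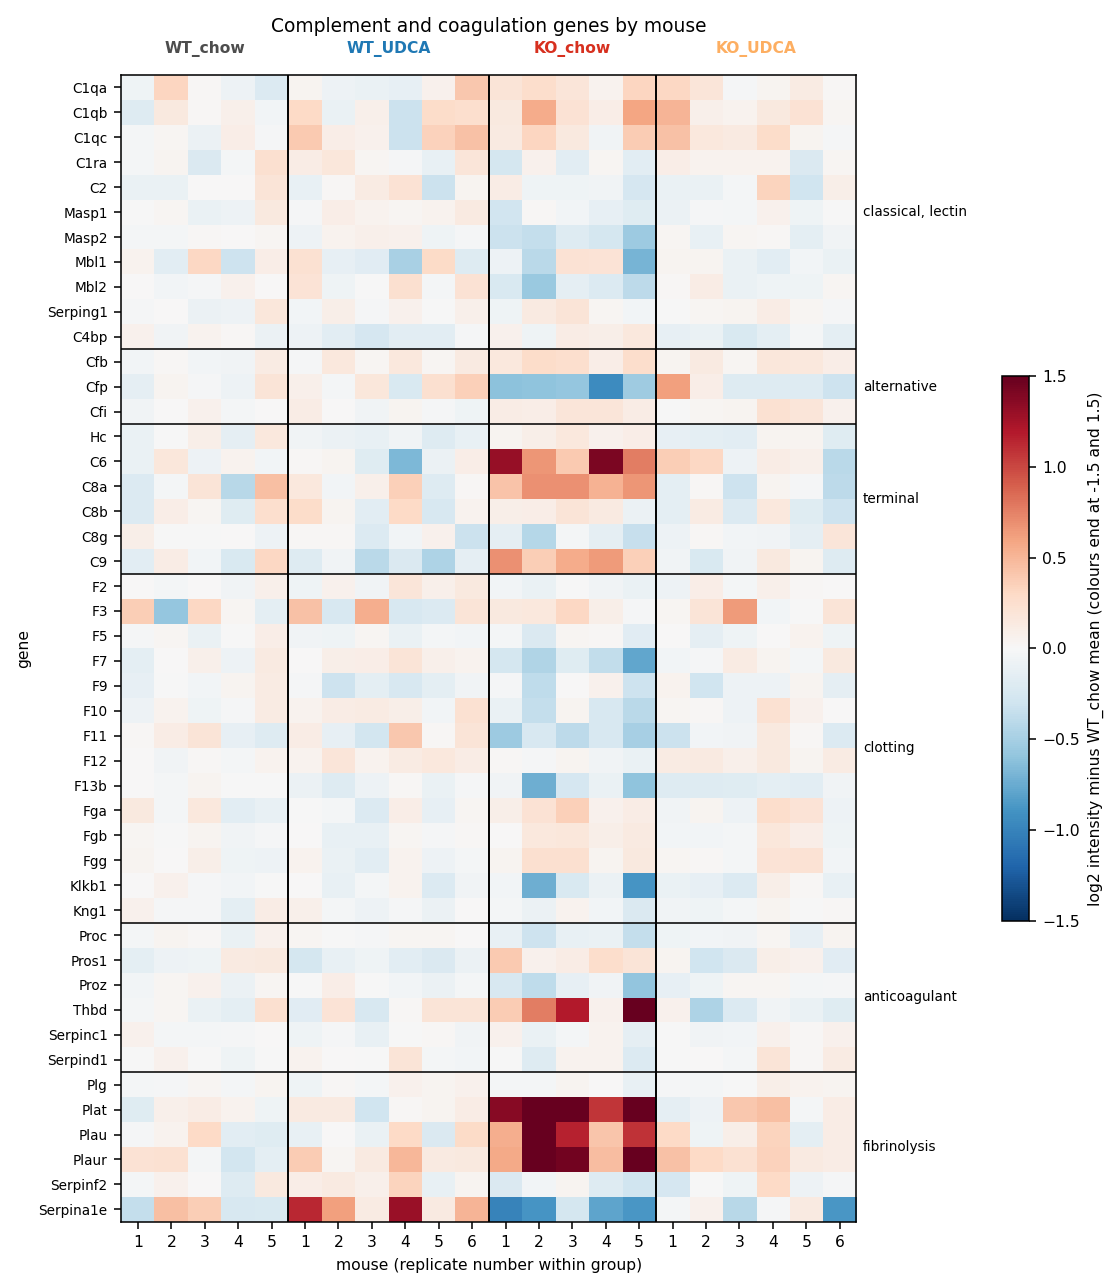
Heat map of the 46 measured members (rows, by role) across the 22 mice (columns, by group), coloured by log2 intensity minus the gene's mean over the WT_chow mice. Plat, Plaur, Plau and C6 stand out as raised in the KO_chow columns and near the WT_chow level in KO_UDCA.

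In the classical and lectin pathway, where C1q or a lectin recognises a target and its proteases cut C4 and C2, 2 of 11 members fell and none rose. That share, 18.2%, is close to the 13.7% called of all genes. Masp2, the lectin pathway protease that cuts C4 and C2, read 10.08, 10.08, 10.13, 10.11 and 10.14 in WT_chow mice 1 to 5 and 9.78, 9.75, 9.91, 9.84 and 9.56 in KO_chow mice 1 to 5. Every knockout mouse lay below every wild-type mouse, with a change of -0.34 (SE 0.07, 1.27-fold, limma adjusted p = 0.00209). Mbl2, a mannose-binding lectin that recruits Masp2, read 9.79, 9.75, 9.77, 9.85 and 9.79 in WT_chow and 9.56, 9.23, 9.65, 9.58 and 9.40 in KO_chow. Those groups also did not overlap, with a change of -0.31 (SE 0.09, adjusted p = 0.0166). The C1q chains, encoded side by side on chromosome 4 and made mainly by macrophages, had differences of 0.20 for C1qa, 0.32 for C1qb and 0.19 for C1qc, and none passed (adjusted p = 0.24, 0.0947 and 0.372). C1qb read 8.08 to 8.43 in WT_chow and 8.38 to 8.87 in KO_chow, with overlap. The other members, C1ra, C2, Masp1, Mbl1, Serping1 and C4bp, had differences of -0.15 to 0.07 and did not pass.

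Of the alternative pathway, which amplifies C3 cleavage, 3 of 5 listed genes were measured. Cfp, properdin, which stabilises the alternative convertase and is made by leukocytes, read 6.89, 7.07, 7.01, 6.95 and 7.22 in WT_chow and 6.41, 6.42, 6.45, 6.08 and 6.50 in KO_chow. No knockout mouse reached the lowest wild-type mouse, and the change was -0.66 (SE 0.14, 1.58-fold, adjusted p = 0.00272). Cfb, the catalytic subunit of that convertase, read 10.52, 10.58, 10.53, 10.51 and 10.69 in WT_chow and 10.73, 10.84, 10.82, 10.66 and 10.83 in KO_chow. KO_chow mouse 4 lay within the wild-type range, and the rise of 0.21 (SE 0.07, adjusted p = 0.0374) was the smallest called change among the 17. Cfi, the protease that inactivates C3b, did not pass: it read 11.13, 11.19, 11.25, 11.16 and 11.19 in WT_chow and 11.29, 11.28, 11.36, 11.36 and 11.30 in KO_chow, without overlap, a difference of 0.14 (SE 0.07, adjusted p = 0.189).

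In the terminal pathway, whose products assemble the membrane attack complex, 3 of 6 members rose and none fell, where 13.7% of all genes were called. C6, which binds C5b at the start of assembly, read 7.70, 7.97, 7.73, 7.86 and 7.76 in WT_chow and 9.11, 8.47, 8.20, 9.22 and 8.57 in KO_chow. All 5 knockout mice lay above all wild-type mice, with a change of 0.91 (SE 0.17, 1.88-fold, adjusted p = 0.00104). C8a, a chain of the C8 subunit that inserts into the membrane, read 9.11, 9.29, 9.51, 8.90 and 9.77 in WT_chow and 9.74, 10.00, 10.00, 9.84 and 9.98 in KO_chow. Wild-type mouse 5 overlapped the knockout range, and the change was 0.60 (SE 0.13, 1.51-fold, adjusted p = 0.00373). C9, which polymerises into the pore, read 9.40, 9.67, 9.52, 9.33 and 9.87 in WT_chow and 10.24, 9.93, 10.12, 10.20 and 9.91 in KO_chow. Its groups did not overlap, with a change of 0.52 (SE 0.11, 1.44-fold, adjusted p = 0.002). C8b, the next protein-coding gene to C8a on chromosome 4, differed by 0.08 (adjusted p = 0.723), C8g by -0.22 (adjusted p = 0.115) and Hc, complement C5, by 0.09 (adjusted p = 0.493).

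**Figure D2:**
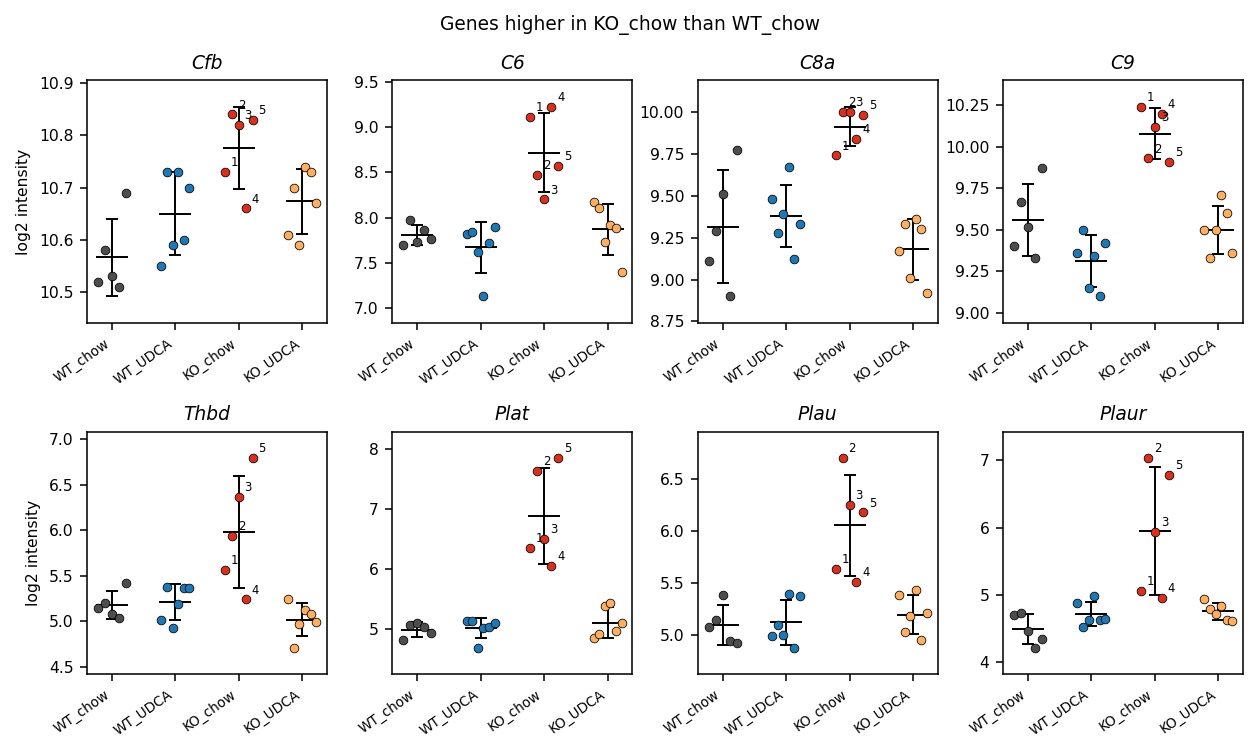
Log2 intensity of the 8 genes higher in KO_chow than in WT_chow, 1 point per mouse, with the mean and SD of each group as a line and bars and the KO_chow mice numbered. Plat and Plaur are highest in KO_chow mice 2 and 5, whereas C6 is highest in mice 4 and 1.

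Among clotting factors, the zymogens and cofactors that lead to thrombin and fibrin, 4 of 14 members fell and none rose (28.6%, beside 13.7% of all genes). F7, the factor that starts clotting with tissue factor, read 9.60, 9.75, 9.82, 9.67 and 9.88 in WT_chow and 9.48, 9.29, 9.56, 9.37 and 8.97 in KO_chow. These groups did not overlap, and the change was -0.41 (SE 0.09, 1.33-fold, adjusted p = 0.00363). F11, a protease of the intrinsic pathway, read 9.42, 9.52, 9.60, 9.29 and 9.21 in WT_chow and 8.86, 9.17, 9.02, 9.17 and 8.91 in KO_chow, a change of -0.38 (SE 0.12, adjusted p = 0.029). Again the knockout values all lay below the wild-type ones.

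Klkb1, plasma prekallikrein of the contact system and the next protein-coding gene to F11 on chromosome 8, read 10.02, 10.09, 10.00, 9.98 and 10.01 in WT_chow and 9.98, 9.29, 9.79, 9.93 and 9.13 in KO_chow. The ranges met at 9.98 when rounded, without crossing, and the change was -0.40 (SE 0.12, adjusted p = 0.0318). F13b, the carrier subunit of the factor that cross-links fibrin, read 9.93, 9.90, 9.97, 9.92 and 9.92 in WT_chow and 9.87, 9.19, 9.68, 9.83 and 9.33 in KO_chow, a change of -0.35 (SE 0.10, adjusted p = 0.0227). In both genes KO_chow mice 2 and 5 were far below the other 3 knockout mice.

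The fibrinogen chains, neighbours on chromosome 3 and the substrate of thrombin, did not pass. Their differences were 0.17 for Fga, 0.11 for Fgb and 0.15 for Fgg (adjusted p = 0.257, 0.302 and 0.231). Fgb read 12.71, 12.67, 12.72, 12.63 and 12.66 in WT_chow and 12.68, 12.84, 12.85, 12.77 and 12.81 in KO_chow, with overlap. F12, which starts the contact system, read 10.73, 10.67, 10.74, 10.69 and 10.78 in WT_chow and 10.74, 10.70, 10.76, 10.67 and 10.62 in KO_chow, a difference of -0.02 (SE 0.06, 95% interval -0.15 to 0.10). F10, which makes thrombin from prothrombin and lies between F7 and Proz on chromosome 8, differed by -0.22 (adjusted p = 0.104). F2, F3, F5, F9 and Kng1 differed by -0.12 to 0.14 without passing.

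**Figure D3:**
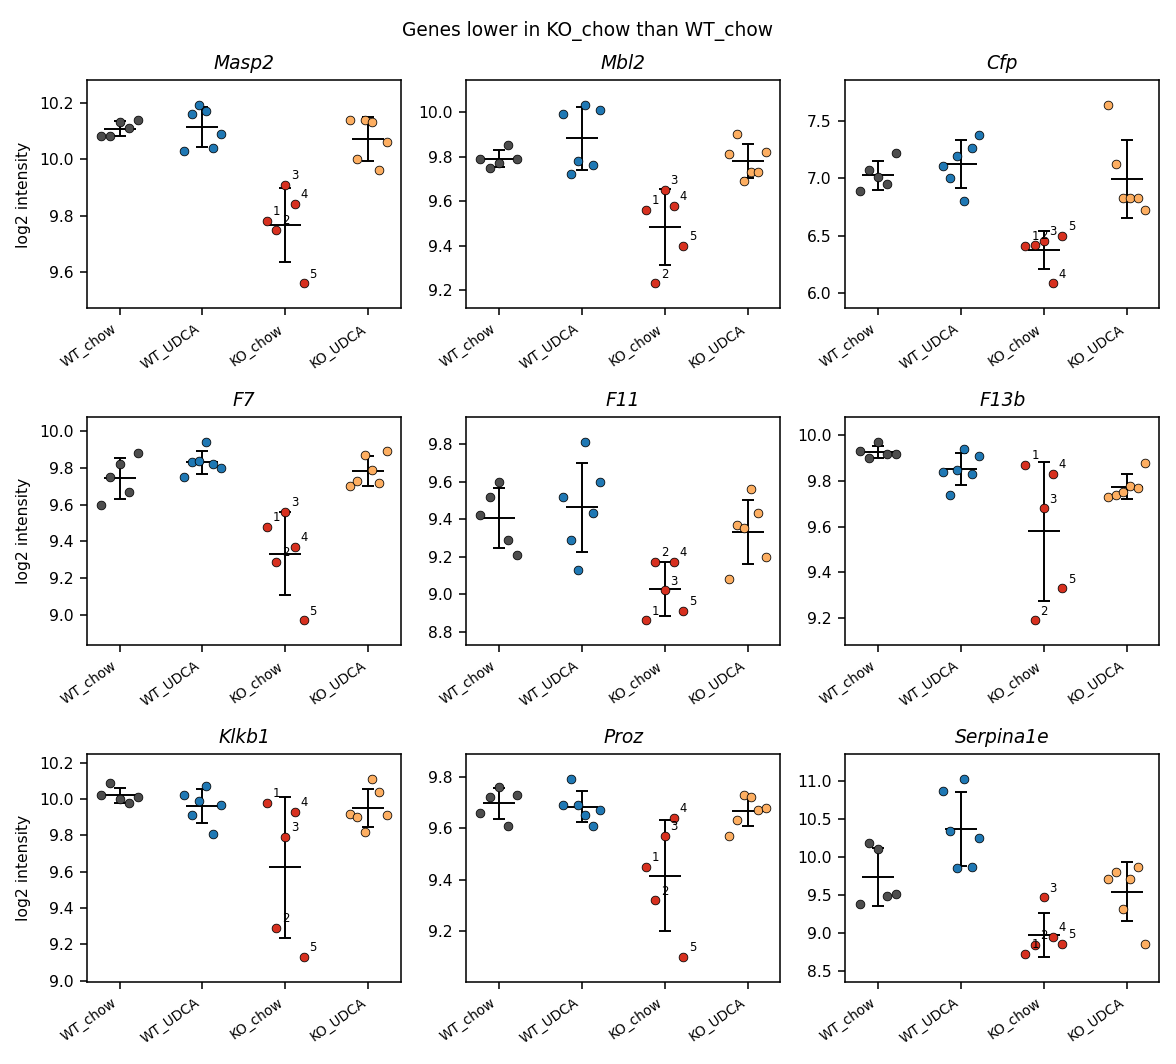
Log2 intensity of the 9 genes lower in KO_chow than in WT_chow, 1 point per mouse, with group mean and SD and the KO_chow mice numbered. For Klkb1 and F13b, KO_chow mice 2 and 5 lie far below the other mice. In both genes, as in Masp2 and Cfp, all 5 KO_chow mice lie below every WT_chow mouse.

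Anticoagulants, which restrain thrombin and its makers, split: 1 of 6 rose and 1 fell, where 7.69% of all genes rose and 6.03% fell. Thbd, thrombomodulin, the endothelial receptor that turns thrombin toward activating protein C, read 5.15, 5.20, 5.08, 5.03 and 5.42 in WT_chow and 5.56, 5.94, 6.37, 5.24 and 6.79 in KO_chow. KO_chow mouse 4 lay within the wild-type range, and the change was 0.81 (SE 0.19, 1.75-fold, adjusted p = 0.00644). Proz, protein Z, a cofactor for inhibition of factor Xa, read 9.66, 9.72, 9.76, 9.61 and 9.73 in WT_chow and 9.45, 9.32, 9.57, 9.64 and 9.10 in KO_chow, a change of -0.28 (SE 0.08, adjusted p = 0.0265) with overlap by mouse 4. Proc, protein C, did not pass although the rounded groups met at 9.50 without crossing: it read 9.50 to 9.66 in WT_chow and 9.24 to 9.50 in KO_chow (difference -0.19, adjusted p = 0.0622). Serpinc1, antithrombin, read 11.70, 11.60, 11.60, 11.61 and 11.64 in WT_chow and 11.70, 11.53, 11.60, 11.68 and 11.49 in KO_chow (difference -0.03, 95% interval -0.16 to 0.10). Pros1, protein S, differed by 0.21 (adjusted p = 0.145) and Serpind1, heparin cofactor II, by -0.06 (adjusted p = 0.677).

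Among the 6 measured members of fibrinolysis and its protease inhibitors, 3 rose and 1 fell, where 13.7% of all genes were called. Plat, tissue-type plasminogen activator, read 4.81, 5.07, 5.10, 5.04 and 4.93 in WT_chow and 6.36, 7.64, 6.51, 6.06 and 7.85 in KO_chow. The lowest knockout mouse was well above the highest wild-type mouse, and the change was 1.89 (SE 0.24, 3.71-fold, adjusted p = 9.11e-06). Plau, urokinase, read 5.08, 5.15, 5.39, 4.94 and 4.92 in WT_chow and 5.64, 6.70, 6.25, 5.51 and 6.18 in KO_chow. These groups did not overlap either, with a change of 0.96 (SE 0.17, 1.94-fold, adjusted p = 0.000513). Plaur, the urokinase receptor that holds the protease at the cell surface, read 4.71, 4.73, 4.47, 4.22 and 4.35 in WT_chow and 5.06, 7.03, 5.94, 4.96 and 6.78 in KO_chow, a change of 1.46 (SE 0.27, 2.75-fold, adjusted p = 0.000813). Knockout mice 2 and 5 were the highest for Plat and Plaur. The level of Plaur lay below the array median on 15 of the 22 arrays, that of Plat on 4, and those of Plau and Thbd on 1 each.

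Plasminogen itself (Plg), the zymogen these activators cut, read 12.06, 12.07, 12.12, 12.06 and 12.13 in WT_chow and 12.06, 12.06, 12.13, 12.09 and 11.98 in KO_chow, with overlap. Its difference was -0.02 (SE 0.06, 95% interval -0.15 to 0.10). Serpinf2, the plasmin inhibitor α2-antiplasmin, differed by -0.14 (adjusted p = 0.411). Serpina1e, one of the mouse α1-antitrypsin copies, read 9.38, 10.19, 10.11, 9.49 and 9.51 in WT_chow and 8.73, 8.85, 9.47, 8.95 and 8.86 in KO_chow. KO_chow mouse 3 overlapped wild type, and the change was -0.76 (SE 0.23, adjusted p = 0.0266). The copies Serpina1b, Serpina1c and Serpina1d differed by -0.01, 0.02 and -0.02. These copies are close in sequence, so signal may be shared between their probes and the Serpina1e value is uncertain.

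The 5 KO_chow mice did not order the same way in every gene. Ranked by distance from the WT_chow mean, mice 2 and 5 were the farthest pair in 9 of the 17 called members, including Plat, Plaur, Klkb1, F13b and Masp2. For C6 the farthest mice were 4 and 1, at 9.22 and 9.11, and for C9 they were mice 1 and 4, at 10.24 and 10.20. Cfp was farthest in mouse 4, and F11 and Serpina1e in mouse 1. The range over KO_chow was wider than over WT_chow in 13 of the 17. Without mice 2 and 5, a total of 7 members passed in the fit (15.2%), where 4.54% of all genes did. They were the 5 higher C6, C9, Plat, Plau and Plaur and the 2 lower Masp2 and Cfp. In that fit Klkb1 had a difference of -0.12 (adjusted p = 0.497) and F13b -0.13 (adjusted p = 0.386), whereas C6 had 1.04 (adjusted p = 0.00324) and C9 0.63 (adjusted p = 0.00261). Other lost calls kept values near those with all 5 mice: F11 -0.39 (adjusted p = 0.118), Serpina1e -0.69 (0.193), C8a 0.55 (0.0538) and Cfb 0.17 (0.252). F7 at -0.27 (0.0629), Mbl2 at -0.19, Proz at -0.14 and Thbd at 0.55 were smaller in size. With fewer mice, a call can be lost while the value hardly moves. By role, 1 of 11 classical and lectin, 1 of 3 alternative, 2 of 6 terminal and 3 of 6 fibrinolysis members passed. Limma called 0 of 14 clotting factors and 0 of 6 anticoagulants, with 2 of each at an unadjusted p of 0.05. In this smaller set 15 members passed an unadjusted p of 0.05, where 16.5% of all genes did, and 15 had groups without overlap, against 12.7% of all genes. Without mouse 2 alone 11 members passed, where 9.24% of all genes did, and without mouse 5 alone 11 passed, where 9.45% did. In the fit to only these groups 11 passed, where 8.36% of all genes did. Cfb, F13b, Klkb1, Mbl2, Proz and Thbd lost their calls there, at limma adjusted p of 0.0537 to 0.136.

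**Figure D4:**
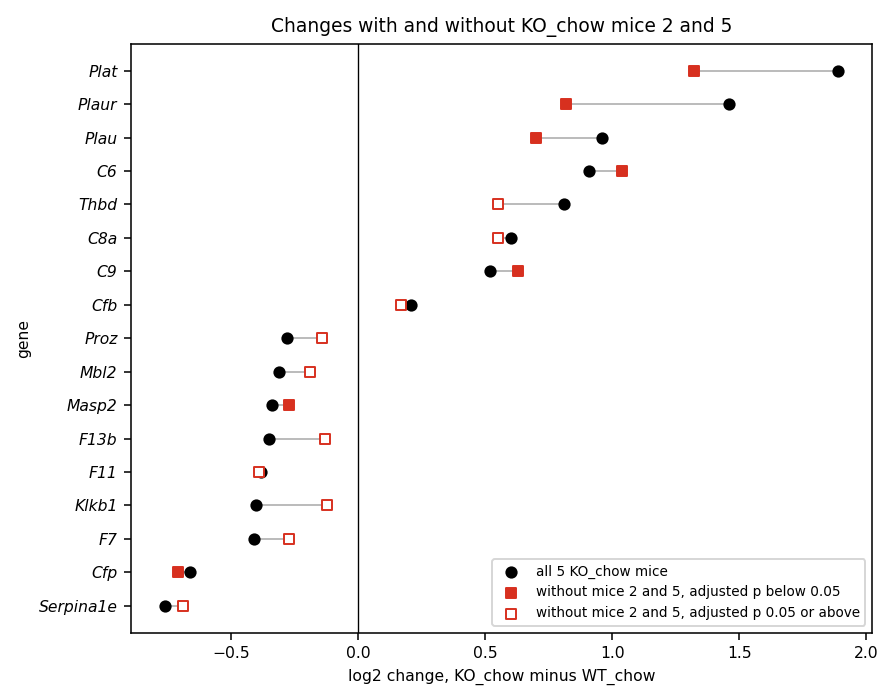
Log2 change between KO_chow and WT_chow (horizontal axis) of the 17 called genes, with all 5 KO_chow mice (black points) and without mice 2 and 5 (red squares, filled where the adjusted p stayed below 0.05). Plat moves from 1.89 to 1.32 and Klkb1 from -0.40 to -0.12, while C6 moves from 0.91 to 1.04.

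Leaving out single mice ended 7 of the 17 calls in at least 1 fit. Of the 10 fits that left out 1 mouse of either group, Cfb was lost in 7, F11 and Klkb1 in 6, Proz and Serpina1e in 5, F13b in 2 and Mbl2 in 1, at adjusted p of 0.0515 to 0.118. Without KO_chow mouse 2 the adjusted p was 0.0664 for Mbl2, 0.0873 for F13b and 0.118 for Klkb1, and without KO_chow mouse 5 it was 0.0826 for F13b and 0.116 for Klkb1. Cfb was lost without WT_chow mouse 1, 2, 3 or 4 or KO_chow mouse 2, 3 or 5, F11 without WT_chow mouse 1, 2 or 3 or KO_chow mouse 1, 3 or 5, and Klkb1 also without WT_chow mouse 1, 2, 3 or 5. Proz was lost without WT_chow mouse 2, 3 or 5 or KO_chow mouse 2 or 5, and Serpina1e without WT_chow mouse 2 or 3 or KO_chow mouse 1, 2 or 5. Masp2, Cfp, C6, C9, Plat, Plau and Plaur were called in all 17 alternative fits of this comparison.

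Markers of several other liver cell types changed in the same contrast, where 7.69% of all genes rose and 6.03% fell. Of the 8 monocyte-derived macrophage markers all 8 rose in KO_chow, of 7 cholangiocyte markers 7 rose, of 7 stellate cell and fibroblast markers 5 rose, of 6 neutrophil markers 5 rose and of 4 platelet markers 1 rose. Of 7 Kupffer cell markers 3 fell, of 9 hepatocyte markers 2 fell, of 6 sinusoidal endothelium markers 1 rose and 1 fell, and of 5 adipocyte markers none passed. The hepatocyte, sinusoidal endothelium, platelet and adipocyte shares, 22.2%, 33.3%, 25% and 0%, rest on few genes, beside 13.7% called of all genes. Summed cholangiocyte markers ranged from 199.8 to 228.1 in WT_chow and from 542.5 to 1109 in KO_chow, and were highest in mice 2 and 5, at 1109 and 839.1. Summed stellate cell and fibroblast markers ranged from 788.6 to 858.1 and from 1568 to 2058, Kupffer markers from 1773 to 2071 and from 1352 to 1575, and hepatocyte markers from 32250 to 34790 and from 29900 to 32690. Without KO_chow mice 2 and 5, 6 of 8 monocyte-derived macrophage, 6 of 7 cholangiocyte, 4 of 7 stellate cell and fibroblast and 1 of 6 neutrophil markers rose and 3 of 7 Kupffer cell markers fell. No hepatocyte, sinusoidal endothelium, platelet or adipocyte marker then passed in limma, with 0, 1, 1 and 1 at an unadjusted p of 0.05. Of all genes 4.54% were called in that fit, and 16.5% passed the unadjusted p. No marker was at 0, on a scale that has no true 0. Their part in the changes of Plat, Plau, Plaur, Thbd, Cfp and the C1q chains, and of the hepatocyte-made factors, was not tested. In RNA from whole liver, fewer cells of a type and less RNA per cell cannot be told apart.

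The second comparison asks what UDCA did in the knockout. In KO_UDCA against KO_chow the activator genes Plat and Plau, Plaur, Thbd, Pros1 and the membrane attack genes C6, C8a and C9 were lower. Masp2, Mbl2, Cfp, F7, F10 and Proz were higher. Of the 46 members 14 were called, 6 higher and 8 lower (30.4%). Of all genes 11.2% were called, 5.03% higher and 6.22% lower. At an unadjusted p of 0.05 it was 22 members, where 23.9% of all genes passed, and 11 members had groups that did not overlap, against 5.89% of all genes. The median member change was 0.04, beside 0.03 for all genes. This contrast and the chow contrast share the KO_chow arrays, so that their values are not independent and are only set side by side.

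Plat read 4.85, 5.03 and 5.44 as lowest, median and highest of the 6 KO_UDCA mice, against 6.06 to 7.85 in KO_chow. The change was -1.78 (SE 0.23, 3.43-fold, adjusted p = 1.94e-05), after 1.89 on chow. Plaur read 4.61, 4.76 and 4.94 in KO_UDCA, and it fell 2.30-fold (SE of the log2 change 0.26, adjusted p = 0.0039). Neither gene overlapped between the diets in the knockout. Plau read 4.95, 5.19 and 5.43 (change -0.85, SE 0.16, adjusted p = 0.00134), and Thbd 4.71, 5.04 and 5.24 (change -0.96, SE 0.19, adjusted p = 0.00142). For Plau, all KO_UDCA mice lay below the KO_chow mice, and for Thbd the highest KO_UDCA mouse and the lowest KO_chow mouse both read 5.24.

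C6 read 7.40, 7.90 and 8.17 in KO_UDCA and fell by 0.85 (SE 0.17, 1.80-fold, adjusted p = 0.00173). C8a read 8.92, 9.24 and 9.36 (change -0.73, SE 0.13, 1.66-fold, adjusted p = 0.000586), and C9 read 9.33, 9.50 and 9.71 (change -0.58, SE 0.10, adjusted p = 0.00073). All 3 terminal pathway genes lay below every KO_chow mouse. Pros1 read 8.01, 8.24 and 8.39 and fell by 0.29 (SE 0.09, adjusted p = 0.0331), although its chow change had not passed.

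Cfp read 6.72, 6.83 and 7.64 in KO_UDCA, all above the highest KO_chow mouse at 6.50, with a change of 0.62 (SE 0.13, 1.54-fold, adjusted p = 0.00379). Masp2 read 9.96, 10.09 and 10.14 (change 0.30, adjusted p = 0.00489) and Mbl2 9.69, 9.77 and 9.90 (change 0.29, adjusted p = 0.0207). Both lectin pathway genes were above all KO_chow mice. F7 read 9.70, 9.76 and 9.89 (change 0.45, SE 0.09, adjusted p = 0.00149), F10 9.41, 9.52 and 9.72 (change 0.26, adjusted p = 0.0407), and Proz 9.57, 9.68 and 9.73 (change 0.25, adjusted p = 0.0436). These 3 neighbours on chromosome 8 rose, F7 without overlap, F10 and Proz with overlap. Klkb1, F11, F13b, Cfb and Serpina1e did not pass. F13b read 9.73, 9.76 and 9.88 in KO_UDCA and Klkb1 9.82, 9.91 and 10.11, and Serpina1e read 8.86, 9.71 and 9.87 (difference 0.57, adjusted p = 0.098). Without KO_chow mice 2 and 5 it was 8 members (17.4%), 2 higher and 6 lower, where 2.8% of all genes passed, and 13 members had groups without overlap, against 8.41% of all genes. At an unadjusted p of 0.05 it was then 15 members, where 15.3% of all genes passed, and the calls for Masp2, Mbl2, F10, Pros1, Proz and Plaur were then lost. Calls were also lost in fits without 1 mouse of the 11, for F10 and Proz in 8, for Pros1 in 6 and for Mbl2 in 2 (without KO_chow mouse 2 or 5), at adjusted p of up to 0.162. The fit to only these groups lost F10, Mbl2, Pros1 and Proz, at limma adjusted p of 0.0722 to 0.153. Among markers, all 8 monocyte-derived macrophage and all 7 cholangiocyte markers fell in KO_UDCA against KO_chow, with summed levels of 675.9 to 784.4 and 218.9 to 347.8, and 3 of 7 Kupffer cell markers rose. Over all genes, 5.03% rose and 6.22% fell. In the same contrast 4 of 6 neutrophil and 4 of 7 stellate cell and fibroblast markers fell. Of 9 hepatocyte markers 2 rose (Hpd by 0.20 and Asgr1 by 0.26), and 2 of 6 sinusoidal endothelium markers rose (Oit3 by 0.66 and Kdr by 0.54). Of the other sinusoidal endothelium markers, Stab2, Clec4g and Pecam1 differed by 0.14 to 0.25 and Lyve1 by -0.29, without passing. Without KO_chow mice 2 and 5 the markers that fell were 6 of 8 monocyte-derived macrophage, 6 of 7 cholangiocyte and 4 of 7 stellate cell and fibroblast, and 3 of 7 Kupffer cell markers rose. Of all genes 2.8% passed in that fit. No neutrophil, hepatocyte or sinusoidal endothelium marker then passed in limma, with 4, 0 and 3 at an unadjusted p of 0.05. The part of these cells in the changes was not tested.

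The third comparison asks whether the genotypes differed on UDCA. In KO_UDCA against WT_UDCA limma called 0 of the 46 members, where 0.0167% of all genes, 4 genes, passed. At an unadjusted p of 0.05 it was 1 member, Serpina1e, where 5.45% of all genes passed, and the limma fit with an intensity trend and robust prior also called 0. No member had groups without overlap, against 0.292% of all genes. Serpina1e read 8.86 to 9.87 in KO_UDCA and 9.86, 10.30 and 11.03 in WT_UDCA (difference -0.82, 95% interval -1.26 to -0.39, unadjusted p = 0.000639, adjusted p = 0.43). The other 45 members differed by at most 0.20 in size, and the 95% intervals had a median half-width of 0.17 and a widest of 0.51. A p that misses the threshold does not show equal levels.

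**Figure D5:**
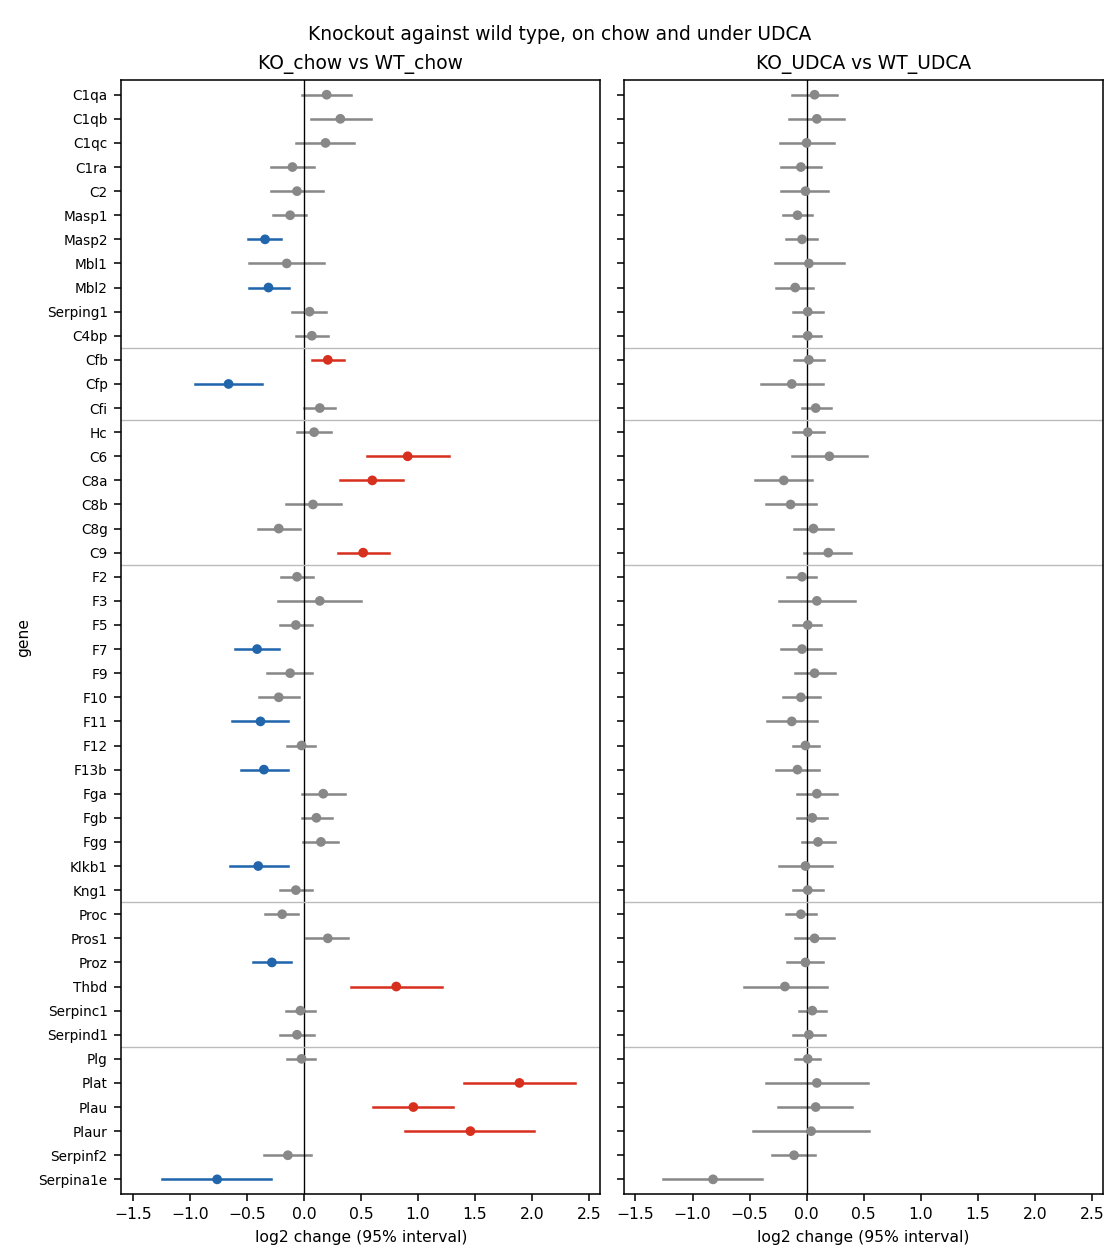
Log2 change with its 95% interval for each of the 46 measured members (rows, grouped by role), knockout against wild type on chow (left) and under UDCA (right), with called genes in red (higher) and blue (lower) and the others in grey. On the right no gene is coloured, and Serpina1e, at -0.82, has the only interval that leaves out 0.

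The fourth comparison, WT_UDCA against WT_chow, asks what UDCA did in wild type. Limma called 0 members, where 0% of all genes passed, and no member had groups without overlap, against 0.65% of all genes. At an unadjusted p of 0.05, which 5.57% of all genes passed, it was 3 members: Serpina1e with a difference of 0.63, C9 with -0.25 and C4bp, which restrains the classical convertase, with -0.14. The fit with an intensity trend and robust prior also called 0. Plat read 4.69, 5.07 and 5.13 in WT_UDCA (4.81 to 5.10 in WT_chow), and C6 read 7.13, 7.77 and 7.90 (7.70 to 7.97 in WT_chow). Both genes overlapped between the diets in wild type.

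The genotype by diet interaction, the UDCA change in the knockout minus that in wild type, passed for 5 members, all negative (10.9%), where 2.67% of all genes passed, 0.6% positive and 2.07% negative. They were Plat at -1.80 (adjusted p = 0.00378), Plaur at -1.42 (adjusted p = 0.0402), Thbd at -1.0 (adjusted p = 0.0424), Plau at -0.88 (adjusted p = 0.0419) and C8a at -0.79 (adjusted p = 0.0187). At an unadjusted p of 0.05 it was 14 members, where 16.3% of all genes passed, and the other 9 did not pass the adjustment. None of the 14 clotting factors passed in limma, with 2 at an unadjusted p of 0.05 and 0 called in the fit with an intensity trend and robust prior. Without KO_chow mice 2 and 5, Plat alone passed (-1.23, adjusted p = 0.000859), where 0.862% of all genes did. With the sample-number run as a block, Plau (adjusted p = 0.0517) and Plaur (adjusted p = 0.0507) lost their calls. Thbd, Plau and Plaur each lost the call in 16 of the 22 fits that left out 1 mouse, in any of the 4 groups, with adjusted p up to 0.0841, so that 2 to 5 members passed.

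Other genes of the same pathways, none of them members, were read from 3 lists. Of 22 measured complement genes 7 rose and 4 fell in KO_chow against WT_chow, where 7.69% of all genes rose and 6.03% fell. Without KO_chow mice 2 and 5 it was 6 and 2, where 4.54% of all genes passed. Itgax, the complement receptor 4 chain, rose by 2.01 (4.03-fold, adjusted p = 4.89e-09), C5ar1, the C5a receptor, by 0.96, Itgb2 by 0.91, C3ar1 by 0.89, Itgam by 0.88, C7 of the membrane attack complex by 0.53 and Clu, which binds and holds back that complex, by 0.42. The genes that fell were the lectin pathway recognition genes Colec10 (change -0.94, adjusted p = 8.55e-06) and Fcna (change -0.93, adjusted p = 2.23e-05), the Kupffer cell complement receptor Vsig4 (change -0.53) and the membrane attack inhibitor Cd59a (change -0.50, adjusted p = 0.0455). Masp2 and Mbl2, which act in the same lectin pathway as Colec10 and Fcna, had changes of -0.34 and -0.31. The call for Mbl2 was lost without KO_chow mice 2 and 5. Other lectin pathway genes did not pass: Colec11 differed by -0.28, Mbl1 by -0.15, Masp1 by -0.12 and Fcnb by -0.12.

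Of 31 measured clotting and fibrinolysis genes 7 rose and 1 fell, where 7.69% of all genes rose and 6.03% fell. Without KO_chow mice 2 and 5 it was 5 and 0, where 4.54% of all genes passed. Anxa2 and S100a10, which form a cell-surface complex that binds plasminogen and tissue plasminogen activator, rose by 2.79 (6.89-fold, adjusted p = 2.01e-06) and 0.98 (adjusted p = 0.00372). Thbs1, thrombospondin, rose by 2.20, F13a1, the catalytic partner of F13b, by 1.24 (adjusted p = 0.0167), the thrombin receptor F2r by 0.72 and Fgl2 by 0.54. Serpina10, the protein Z-dependent inhibitor that works with Proz, rose by 0.51 (adjusted p = 0.000826), against the direction of Proz. Ggcx, the vitamin K dependent carboxylase that modifies F2, F7, F9, F10, Proc, Pros1 and Proz, fell (change -0.29, adjusted p = 0.02). That call was lost without KO_chow mice 2 and 5.

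Of 16 measured signals and transcription factors known to act on these genes, 6 rose and 2 fell, where 7.69% of all genes rose and 6.03% fell. Without KO_chow mice 2 and 5 it was 1 and 0 (6.25%), close to the 4.54% of all genes. In that fit neither fall named next was called, and at most 1 of the rises was. The receptor genes Osmr and Il6st rose by 1.79 (adjusted p = 7.60e-06) and 0.37, Il1b by 0.91, Il1r1 by 0.68, Tnf by 0.58 and Stat3 by 0.47 (adjusted p = 0.0349). Cebpa and Nr1h4, which encodes the bile acid receptor FXR, fell (changes -0.57 and -0.49, adjusted p = 0.0283 and 0.0239). Il6 differed by -0.02 and Hnf4a by -0.04, without passing. In KO_UDCA against KO_chow, 11 of the 22 complement genes passed (4 higher, 7 lower), 8 of the 31 clotting genes (1 higher, 7 lower) and 8 of the 16 signals (3 higher, 5 lower), where 5.03% of all genes were higher and 6.22% lower. Without KO_chow mice 2 and 5 it was 6, 4 and 1 genes, where 2.8% of all genes passed. In KO_UDCA against WT_UDCA limma called 0 in each list, with 1, 0 and 1 at an unadjusted p of 0.05. Of all genes 0.0167% were called and 5.45% passed the unadjusted p.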

How the data were processed

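The intensity values are those deposited in the series' value table, 1 column per array. Per the labels, the authors made them with RMA-PLM on an unlogged scale, and the submitters' processing notes name RMA. No genome build for the array annotation is stated in these sources. Of 24973 rows, 24015 named 1 gene symbol, and for the 4 symbols on several rows the brightest row was kept, leaving 24011 genes. Intensities (1.656 to 10280) were taken to log2 with no pseudocount.

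Group means were fitted over all 4 groups with limma 3.58.1 (lmFit and eBayes) in R 4.3.3, and p-values were two-sided with Benjamini-Hochberg adjustment over all genes, called below 0.05. They rest on the spread between mice within groups, as a variance per gene shared by the 4 groups. In several members KO_chow varied more than the other groups. The SD of Klkb1 was 0.39 in KO_chow, 0.04 in WT_chow, 0.09 in WT_UDCA and 0.11 in KO_UDCA. For such genes the shared variance is drawn partly from the quieter groups. The number of arrays limits the precision, and interval levels are 95%. Mice are numbered in accession order, and the numbers pair nothing. Scripts were tested on simulated data.

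All 46 measured members may be named. On chow, values are given for every mouse for the called members and for the 5 uncalled members of smallest SE, and of the other lists the called genes are named. Members, lists, the alternatives and the doubt about KO_chow mice 2 and 5 were chosen with earlier results of these data known. The alternatives were a pseudocount of 16, a filter on dim genes, quantile normalization, an intensity trend with robust prior, the sample-number run (1 to 15 against 16 to 22) as a block, fits to only the groups compared, and leaving out mice. Counts by role and list without KO_chow mice 2 and 5 were added after seeing the data. The run is a label order, not a stated batch. The rows without a symbol were not used here. Promoter sequences came from RefSeq, GRCm38.p6. The HNF1 motif reported is 1 letter shorter than the one first searched, a choice made after seeing the data.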

Additional observations from a re-analysis of the deposited data

Results flagged for a closer look

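Among the 184 sets formed by a member and a group, 7 held a mouse far from the others of its group by Dixon's test. Chance would set apart about 1 set in 20. The 7 found are fewer than that share of the sets, so these mice are listed without being read as outliers. In WT_UDCA, C1qa read 7.62 in mouse 6 against 7.28 in the nearest mouse, C6 read 7.13 in mouse 4 against 7.62, and Plat read 4.69 in mouse 3 against 5.01. In KO_UDCA, C1ra read 6.77 in mouse 5 against 7.01, F3, tissue factor, read 6.19 in mouse 3 against 5.75, and F13b read 9.88 in mouse 6 against 9.78. In KO_chow, Cfp read 6.08 in mouse 4 against 6.41. No mouse appeared for 2 of these genes.

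For 5 members the UDCA change differed between genotypes in limma's interaction test. The differences were -1.80 for Plat (adjusted p = 0.00378), -1.42 for Plaur (adjusted p = 0.0402), -1.0 for Thbd (adjusted p = 0.0424), -0.88 for Plau (adjusted p = 0.0419) and -0.79 for C8a (adjusted p = 0.0187). With the sample-number run as a block the calls for Plau (adjusted p = 0.0517) and Plaur (adjusted p = 0.0507) were lost. Thbd, Plau and Plaur each lost the call in 16 of the 22 fits that left out 1 mouse. Without KO_chow mice 2 and 5, Plat alone passed. Marker sums of monocyte-derived macrophages, 1152 to 3795 for KO_chow against 675.9 to 784.4 for KO_UDCA, moved the same way, and their part was not tested.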

How the results depend on the processing

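On chow 17 members were called, 11 in the fit to only the groups compared, 11 to 18 when single mice were left out (11 without KO_chow mouse 2 or mouse 5) and 7 without both. For KO_UDCA against KO_chow 14 were called, 10 to 14 when single mice were left out and 8 without KO_chow mice 2 and 5. For the interaction 5 were called, 3 with the sample-number run as a block (without Plau and Plaur), 2 to 5 when single mice were left out and 1 without KO_chow mice 2 and 5. The remaining alternatives gave 17 to 19, 10 to 18 and 4 to 6. In KO_UDCA against WT_UDCA and WT_UDCA against WT_chow, limma called 0 members under every alternative, with 1 and 3 at an unadjusted p of 0.05 in the fit as reported. Quantile normalization ended the calls for F11 on chow (adjusted p = 0.0662), for F10 and Proz in KO_UDCA against KO_chow (adjusted p = 0.0541 and 0.0521) and for Thbd in the interaction (adjusted p = 0.0613). Of 782 member fits on chow, 9 changed sign, none of a called member. Over all genes, 3295 were called on chow, 2008 in the fit to only the groups compared, 2219 to 3849 when single mice were left out and 1089 without KO_chow mice 2 and 5. For KO_UDCA against KO_chow, 2701 were called, 1454 in the fit to only the groups compared, 1632 to 3201 when single mice were left out (1652 without KO_chow mouse 2, 1632 without mouse 5) and 673 without both. For the interaction 642 were called, 1029 with the filter on dim genes, 301 to 1219 when single mice were left out and 207 without KO_chow mice 2 and 5. The cause of these shifts was not tested. The HNF1 motif, shortened after seeing the data, lay in 4 member promoters, against 3 with the further T. Intensities give no depth, and Plaur lay below the array median on 15 of 22 arrays. No paired analysis was possible because the labels give no numbers shared between groups.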
